A study of Mus musculus with 8 samples.

Results

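The SLC22 family of organic anion and organic cation transporters was examined in RNA from whole mouse kidneys taken at postnatal day 8. The 9 genes described, Slc22a2, Slc22a4, Slc22a5, Slc22a6, Slc22a7, Slc22a8, Slc22a12, Slc22a13 and Slc22a18, were taken by symbol and are 9 of the 26 SLC22 rows among 47729 genes. Expression was profiled by strand-specific RNA-seq of total RNA in 8 libraries. In 4 of them, called knockout, the mice carried a Six2-driven Cre transgene and 2 floxed Kctd1 alleles, and the labels call the knockout nephron-specific. Six2 drives Cre in nephron progenitors, so the epithelium of the nephron is within its lineage, and collecting duct, stroma, vessels and blood are largely outside it. The other 4, called wildtype, came from control littermates labelled wildtype, whose Cre and floxed alleles are not given in the sources used here. Whether the libraries stem from 8 different mice is not labelled, so a p-value measures their spread, which may be technical.

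SLC22 proteins carry small charged molecules across the cell membrane. In the proximal tubule, basolateral members take organic anions and cations, drugs included, from the blood, and apical members exchange urate or recover nutrients such as carnitine from the filtrate. Organic anion uptake by OAT1 and OAT3 is driven by exchange for dicarboxylates, and many of the genes are known targets of the hepatocyte nuclear factors HNF1 and HNF4.

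The genes lie in pairs and clusters of the mouse genome (GRCm38, the assembly that mm10 denotes). Slc22a8 (chr19:8591254-8611835, plus strand) and Slc22a6 (chr19:8618039-8628299, plus strand) are separated by 6203 bases, and Slc22a12 (chr19:6535845-6543032, minus strand) lies on the same chromosome. Slc22a5 (chr11:53864542-53891660) and Slc22a4 (chr11:53983123-54028090), both on the minus strand, flank the related gene Slc22a21. Slc22a2 (chr17:12584132-12628488, plus strand) and Slc22a7 (chr17:46432183-46438457, minus strand) lie apart on 1 chromosome, and Slc22a13 is at chr9:119192974-119209098 on the minus strand. Slc22a18 (chr7:143473736-143499334, plus strand) sits in an imprinted domain.

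Promoters were matched by symbol for 8 of the 9 genes in a RefSeq table of build GRCm38.p6. The 250 bases before the annotated start are shown for the 3 organic anion transporter genes with the smallest p and for Slc22a5, the gene with matches to the consensus of AP-2, the transcription factor family that Kctd1 is known to repress. Slc22a6 (chr19:8617746-8617995, plus strand) and Slc22a8 (chr19:8592932-8593181, plus strand) each hold the HNF1 half-site GTTAAT, in capitals.
Slc22a6: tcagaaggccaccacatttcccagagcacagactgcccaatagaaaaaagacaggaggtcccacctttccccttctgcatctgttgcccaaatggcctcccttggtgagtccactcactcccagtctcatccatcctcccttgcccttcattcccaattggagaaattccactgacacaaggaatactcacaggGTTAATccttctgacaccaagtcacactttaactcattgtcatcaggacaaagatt
Slc22a8: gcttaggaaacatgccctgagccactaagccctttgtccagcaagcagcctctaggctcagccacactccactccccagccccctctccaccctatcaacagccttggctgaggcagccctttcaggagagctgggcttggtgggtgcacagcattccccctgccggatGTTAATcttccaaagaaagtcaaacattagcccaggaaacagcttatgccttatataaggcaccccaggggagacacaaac
In Slc22a5 (chr11:53891704-53891953, minus strand) the capitals mark 2 matches to the AP-2 consensus GCCNNNGGC, and Slc22a12 (chr19:6543071-6543320, minus strand) holds none of the 3 motifs searched.
Slc22a12: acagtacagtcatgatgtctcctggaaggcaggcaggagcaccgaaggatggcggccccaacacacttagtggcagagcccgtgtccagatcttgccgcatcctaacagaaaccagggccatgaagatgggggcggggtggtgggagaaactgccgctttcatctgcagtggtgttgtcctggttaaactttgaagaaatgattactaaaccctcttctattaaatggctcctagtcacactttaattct
Slc22a5: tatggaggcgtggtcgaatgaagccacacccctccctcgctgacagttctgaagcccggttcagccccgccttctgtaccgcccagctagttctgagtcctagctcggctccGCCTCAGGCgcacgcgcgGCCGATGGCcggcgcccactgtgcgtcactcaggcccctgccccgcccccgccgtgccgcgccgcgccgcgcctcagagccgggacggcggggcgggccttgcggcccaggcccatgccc
The half-site starts 56 bases before the start of Slc22a6 and 81 bases before that of Slc22a8, in the orientation of the gene in both. The RefSeq start of Slc22a8 lies inside the annotated span given above. Of all 32851 promoter windows of this length, 6.43% hold GTTAAT on either strand. The AP-2 consensus was found at 138 and 120 bases before the start of Slc22a5, and 13.7% of all windows hold it. The HNF4 core CAAAGTCCA, searched on both strands, matched in 0.384% of windows and in none of the 8. The 3 motifs did not overlap in these windows. A match describes letters and does not show binding.

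The libraries held 14457760 to 20741076 counts. Kctd1, the deleted gene, measured 22.4, 25.4, 25.8 and 23.5 CPM (counts scaled to library size with TMM factors) in knockouts 1 to 4, against 32.1, 28.9, 32.6 and 32.6 in wildtypes 1 to 4. It was lower in every knockout library, although its change missed the threshold (log2 fold change -0.38 ± 0.09 SE; edgeR adjusted p = 0.279). With DESeq2, which called 143 genes where edgeR called 15, its adjusted p was 0.0158. Counts are per gene, so reads outside the floxed segment and from cells without Cre are included. The library knockout 2 stood apart: 5.39% of its counts came from ribosomal RNA (Rn18s-rs5), beside 0.361% to 0.743% in 6 of the others and 1.141% in knockout 1, and 41.5% of its TPM (transcript abundance per length and library) fell on small and ribosomal RNA rows, against 14.0% to 22.2%. The median gene in knockout 2 had 73.1% of its wildtype TPM, against 95.1% to 106% in the other 7 libraries. Levels of different genes are given below as TPM, which is per length, and differences between the groups as scaled CPM. Xist was high in 1 library of each group, with 81994 counts (knockout 2) and 101295 counts (wildtype 3) beside 4 to 151 in the rest.

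The urate transporter gene Slc22a12 had the highest TPM of the 9 and Slc22a7 the lowest, about 2 orders of magnitude apart. Slc22a12 encodes URAT1, which exchanges urate for organic anions at the apical membrane, and measured 45.7, 43.3, 48.8 and 52.0 TPM in wildtype 1 to 4 (mean 47.4 ± 3.78, SD, n = 4). Slc22a8, which encodes the basolateral organic anion transporter OAT3, followed at 39.4 ± 3.26 TPM, and the ranges of these 2 genes overlapped. Slc22a18, a transporter-like gene whose substrates are not settled, and Slc22a5, which encodes the carnitine transporter OCTN2, were level at 29.3 ± 2.41 and 29.2 ± 3.88 TPM. Slc22a6, which encodes the basolateral organic anion transporter OAT1, and Slc22a2, which encodes the basolateral organic cation transporter OCT2, overlapped at 19.3 ± 0.86 and 18.6 ± 0.588 TPM.

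Slc22a13, which encodes OAT10, a nicotinate and urate exchanger, reached 9.94 ± 0.879 TPM. Slc22a4, which encodes OCTN1, a carrier of ergothioneine, reached 3.16 ± 0.388 TPM, and Slc22a7, which encodes the organic anion transporter OAT2, 0.465 ± 0.0911 TPM, with 24 to 40 counts per wildtype library. The wildtype ranges separated Slc22a8 from Slc22a18, Slc22a5 from Slc22a6, Slc22a2 from Slc22a13, Slc22a13 from Slc22a4 and Slc22a4 from Slc22a7. They overlapped within the other neighbouring pairs. Slc22a12 made up 24.1% of the wildtype TPM of the 9 genes. Dividing CPM by annotated exon length gave 16.9% and placed Slc22a8 and Slc22a5 ahead of it, so the lead of Slc22a12 depends on the length used.

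**Figure D1:**
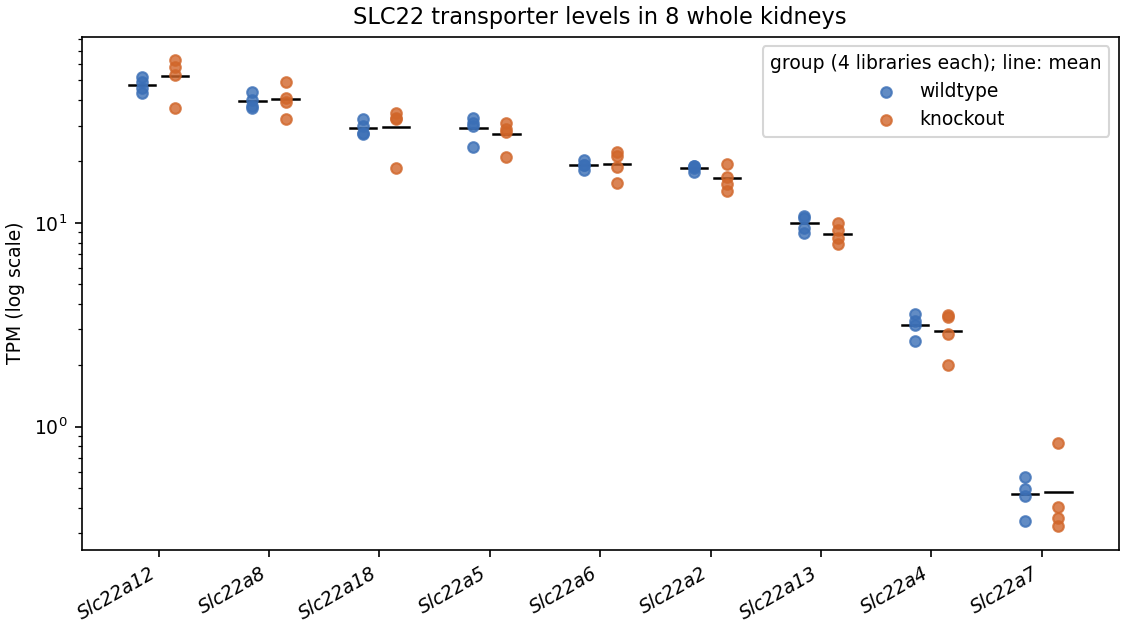
TPM (log axis) of the 9 SLC22 genes in each library, ordered by the wildtype mean, with wildtype in blue, knockout in orange and a line at the mean of 4 libraries. Slc22a12 lies highest at 43.3 to 52.0 TPM in wildtype and Slc22a7 lowest. In every gene except Slc22a7 the lowest knockout point is knockout 2.

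The comparison of knockout with wildtype asks whether deleting Kctd1 in the nephron altered these transporters. Of the 9 genes, all passed the filter on low counts and 0 passed the threshold over 18548 tested genes (quasi-likelihood fit of edgeR, p adjusted by Benjamini and Hochberg, threshold 0.05). DESeq2 and limma-voom called 0 as well. Over all tested genes edgeR called 15, or 0.0809%, of which 6 (0.0323%) were higher and 9 (0.0485%) lower, so a count of 0 among 9 is near the background. At an unadjusted edgeR p under 0.05 there were 3 of the 9, all higher in knockout, and 6.18% of all genes reach that level. The median log2 fold change of the 9 was 0.13, with 7 positive and 2 negative, beside 0.00 over all tested genes. That median was 0.05 without knockout 3, and it was -0.02 and -0.03 with limma on log2(TPM + 1) and log2(TPM + 0.1), where the median of all genes was -0.11 and -0.14. In bulk kidney RNA, fewer cells of a type and less RNA per cell cannot be told apart.

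Among the organic anion and urate transporters, Slc22a12, Slc22a8 and Slc22a6 were the 3 genes with unadjusted p under 0.05. Slc22a12 measured 139, 116, 128 and 143 CPM in knockouts 1 to 4, against 104, 104, 113 and 113 in wildtypes 1 to 4. All 4 knockout libraries lay above all 4 wildtype libraries, with knockout 2 the nearest to them. The knockout mean was 131 ± 11.9 CPM and the wildtype mean 109 ± 5.19 CPM (SD over 4 libraries), a ratio of 1.21 (log2 fold change 0.27 ± 0.08 SE, 95% interval 0.10 to 0.45; edgeR adjusted p = 0.475, range over the alternatives 0.136 to 0.847).

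Slc22a6, the gene of OAT1, measured 146, 161, 169 and 166 CPM in knockouts 1 to 4, against 144, 143, 145 and 144 in wildtypes 1 to 4. The wildtype libraries lay within 3 CPM of one another, and knockout 1 exceeded the highest of them by less than 1 CPM. The log2 fold change was 0.15 ± 0.06 (95% interval 0.01 to 0.29; edgeR adjusted p = 0.762). Slc22a8, the gene of OAT3, measured 254, 280, 271 and 305 CPM in knockouts 1 to 4, against 233, 240, 253 and 260 in wildtypes 1 to 4. Its groups overlapped, since knockout 1 lay below wildtype 4. The log2 fold change was 0.17 ± 0.07 (95% interval 0.01 to 0.33; edgeR adjusted p = 0.766).

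Groups of scaled CPM did not overlap for 2 of the 9, Slc22a12 and Slc22a6, where 4.03% of all tested genes separate in this way. On the TPM scale 0 of the 9 separated, against 4.78% of all tested genes. Slc22a12 had 58.1, 36.7, 52.8 and 62.9 TPM in knockout 1 to 4, so that knockout 2 lay below every wildtype library and the other 3 lay above all of them. With limma on log2(TPM + 1), which shifted the median of all genes to -0.11, the log2 fold changes of Slc22a12, Slc22a8 and Slc22a6 were 0.12, 0.02 and 0.01. With each library centred on its median gene, an alternative chosen after seeing the data, they were 0.26, 0.16 and 0.14. Without knockout 2, edgeR gave 0.33, 0.16 and 0.15.

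The intervals of the remaining organic anion transporter genes included 0. Slc22a13 measured 32.8, 37.0, 30.5 and 33.8 CPM in knockouts 1 to 4, against 32.3, 32.2, 36.8 and 35.0 in wildtypes 1 to 4 (log2 fold change -0.02, 95% interval -0.22 to 0.17), and the groups overlapped. Its annotated span lies within that of Slc22a14 on the same strand, and a pseudogene copy, Slc22a13b-ps, adjoins it, so reads of these 3 may not be fully told apart. Slc22a7 measured 1.19, 1.72, 3.04 and 1.39 CPM in knockouts 1 to 4, against 1.58, 1.80, 1.96 and 1.15 in wildtypes 1 to 4. Knockout 3 was the highest and the other 7 libraries overlapped. Its interval of -0.58 to 0.92 (log2) shows how little 19 to 44 counts per library can resolve.

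**Figure D2:**
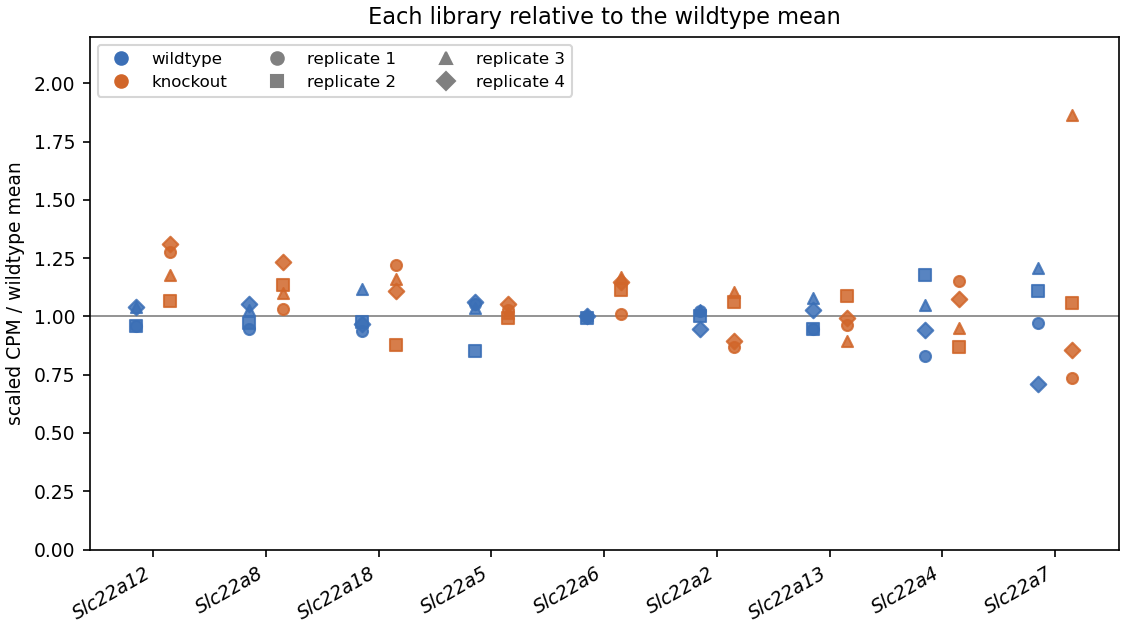
Scaled CPM of each library divided by the wildtype mean of that gene, for the 9 SLC22 genes, with wildtype in blue, knockout in orange and a marker shape for each replicate number. All 4 knockout points of Slc22a12 and Slc22a6 lie above the wildtype points, and those of the other 7 genes overlap with wildtype.

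The genes for organic cation and carnitine carriers had log2 fold changes near 0. Slc22a2, which encodes OCT2, measured 59.7, 73.0, 75.9 and 61.5 CPM in knockouts 1 to 4, against 70.3, 68.8, 70.7 and 65.2 in wildtypes 1 to 4. Knockout 1 and 4 lay below all wildtype libraries and knockout 2 and 3 above them, so the knockout libraries spread more widely (SD 8.10 against 2.51 CPM; this difference in spread was not tested). The log2 fold change was -0.03 ± 0.09 (95% interval -0.23 to 0.18; edgeR adjusted p = 0.985).

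Slc22a5, the OCTN2 gene, measured 153, 148, 152 and 157 CPM in knockouts 1 to 4, against 157, 127, 154 and 158 in wildtypes 1 to 4, with wildtype 2 the lowest of the 8. Its log2 fold change was 0.03 ± 0.08, with a 95% interval of -0.14 to 0.21. Slc22a4, the OCTN1 gene, measured 11.9, 8.95, 9.80 and 11.1 CPM in knockouts 1 to 4, against 8.58, 12.2, 10.8 and 9.71 in wildtypes 1 to 4, with overlapping groups and an interval of -0.31 to 0.34 (log2). These intervals leave out changes of 2-fold in either direction for both genes. Slc22a4, Slc22a5 and Slc22a21 are close paralogs, and how reads were divided among them was not examined.

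Slc22a18, the member in the imprinted domain, measured 82.1, 58.9, 78.0 and 74.6 CPM in knockouts 1 to 4, against 63.1, 65.6, 75.3 and 65.1 in wildtypes 1 to 4. Knockout 2 was the lowest of all 8 libraries and knockout 1 the highest. The log2 fold change of 0.13 ± 0.11 (95% interval -0.11 to 0.37) did not pass. It was 0.22 without knockout 2 (edgeR adjusted p = 0.743) and 0.067 without knockout 1. Of 10 genes listed from its imprinted domain 9 were tested, 0 passed, and 3 were positive and 6 negative, with a median log2 fold change of -0.09. Kcnq1ot1, the antisense RNA that silences the paternal copies of the domain, measured 133 ± 23.8 CPM in knockout and 105 ± 8.23 in wildtype, with overlapping groups (SD, n = 4 each). Tssc4 measured 36.2 ± 4.60 and 41.3 ± 5.84 CPM.

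**Figure D3:**
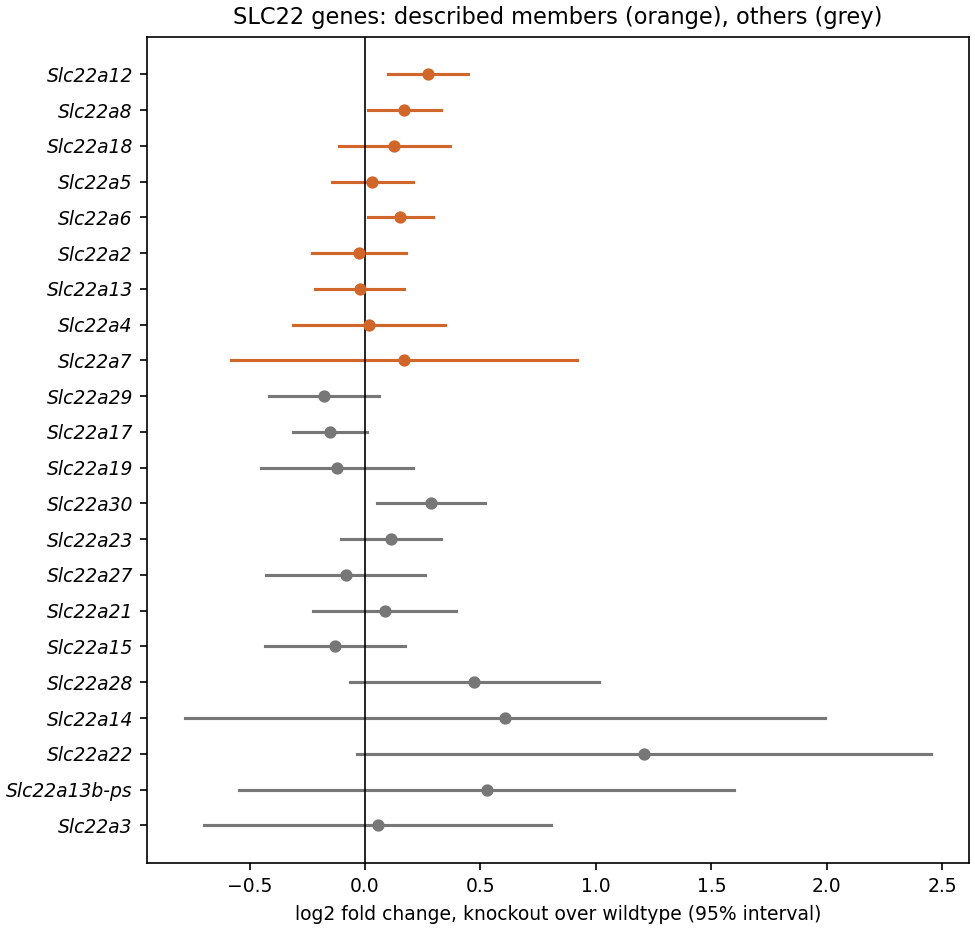
Log2 fold change of knockout over wildtype with its 95% interval for the 9 genes described (orange) and other tested SLC22 genes (grey). The intervals of Slc22a12, Slc22a8, Slc22a6 and Slc22a30 lie above 0 before adjustment, and all other intervals shown include 0.

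Of the other 17 SLC22 genes 14 were tested and 0 passed with edgeR or DESeq2, with 9 positive, 5 negative and a median log2 fold change of 0.08. At an unadjusted edgeR p under 0.05 there was 1, Slc22a30, at 32.8, 30.8, 25.0 and 30.1 CPM in knockouts 1 to 4, against 24.6, 22.3, 27.0 and 23.4 in wildtypes 1 to 4. Slc22a22, which encodes a prostaglandin transporter, was next by p, and was uneven among knockout libraries, at 2.26, 2.22, 7.80 and 10.3 CPM against 1.54 to 3.81 CPM in wildtype. Knockout 3 and 4 were thus the 2 high libraries, and knockout 1 and 2 lay within the wildtype range. Slc22a30 belongs to a cluster of close paralogs, and how reads were divided among the copies was not examined. Slc22a16 and Slc22a20 had 0 counts in every library.

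Transporters that work beside the SLC22 carriers included 2 with wider gaps between the groups. In the list of other drug transporters 0 of 21 tested genes passed with edgeR, 14 were positive and 7 negative, and the median log2 fold change was 0.11. Abcc2, which encodes the apical efflux pump MRP2, measured 82.5, 84.6, 89.3 and 85.3 CPM in knockouts 1 to 4, against 58.9, 60.1, 46.4 and 63.7 in wildtypes 1 to 4. Every knockout library was above every wildtype library, at a log2 fold change of 0.58 ± 0.10 (edgeR adjusted p = 0.10). With DESeq2, which called 143 genes in all, Abcc2 passed (adjusted p = 5.9e-05). Slco2a1, which encodes a prostaglandin transporter, measured 43.1 ± 6.44 and 56.0 ± 2.95 CPM (SD, n = 4 each) in knockout and wildtype, a log2 fold change of -0.38 ± 0.11 that did not pass.

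Dicarboxylate carriers supply the exchange partner of OAT1 and OAT3. Slc13a3, which encodes the basolateral sodium-dicarboxylate cotransporter, measured 186, 176, 176 and 199 CPM in knockouts 1 to 4, against 130, 169, 142 and 134 in wildtypes 1 to 4. The groups did not overlap, and the log2 fold change of 0.36 ± 0.09 missed the threshold with edgeR (adjusted p = 0.344) and passed with DESeq2 (adjusted p = 0.0364). Of the 5 genes of this list 0 passed with edgeR and the median was 0.07. The sulfate transporter gene Slc13a1 measured 129 ± 27.4 and 112 ± 12.2 CPM.

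Lists of urate and carnitine handling held 0 calls. Of 10 tested urate and monocarboxylate genes 7 were positive, with a median of 0.03, and Slc17a1, which encodes an apical phosphate and urate transporter, measured 103 ± 13.4 CPM in knockout and 87.0 ± 5.81 in wildtype. Slc17a2 lay at 0.676 ± 0.194 and 1.105 ± 0.253 CPM. Of 11 carnitine genes 7 were positive, with a median of 0.04. Cpt1b, a mitochondrial carnitine palmitoyltransferase gene, measured 51.8 ± 10.3 and 65.0 ± 13.5 CPM, and Shmt1, which encodes a serine hydroxymethyltransferase, 54.8 ± 3.06 and 60.5 ± 3.75 CPM. The 4 scaffold genes had a median of -0.07: Slc9a3r2, which encodes the scaffold NHERF2, measured 116 ± 6.18 and 129 ± 4.25 CPM, and Pdzk1, whose product anchors URAT1, 651 ± 48.9 and 682 ± 6.51 CPM.

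**Figure D4:**
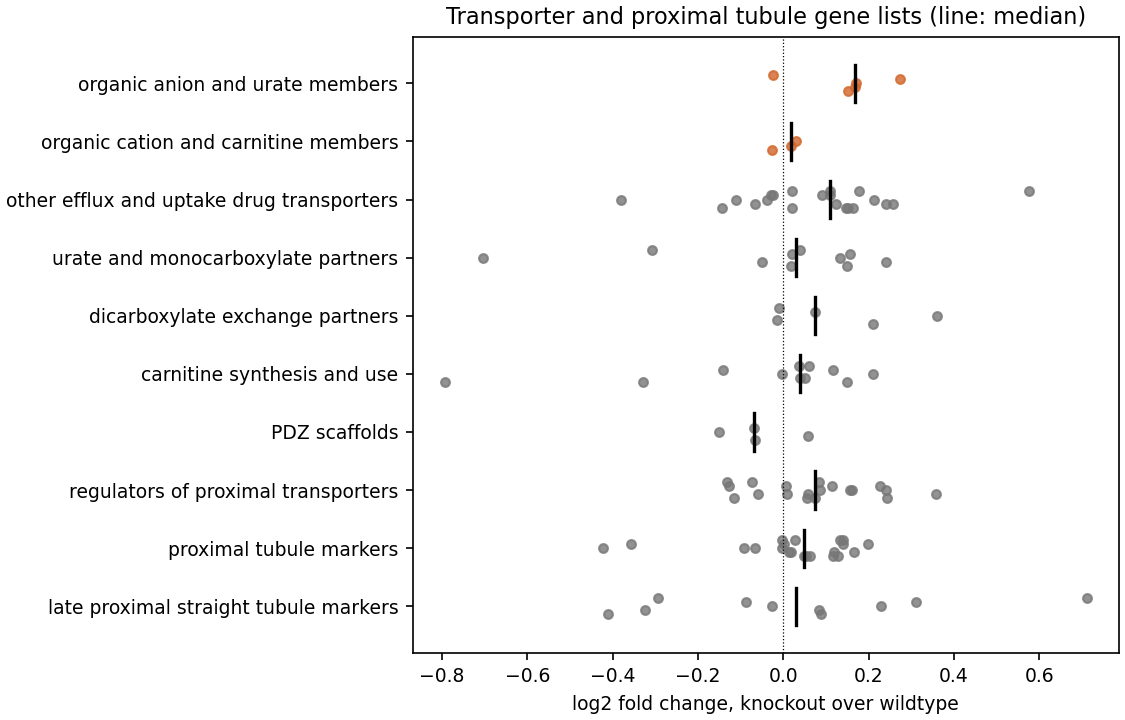
Log2 fold change of each tested gene in the transporter and proximal tubule lists, with a line at the list's median and the SLC22 genes in orange. The organic anion members have a median of 0.17, which is the value of the scarce Slc22a7. The organic cation and carnitine members have one of 0.02, which is the value of Slc22a4. Every list spans 0.

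Regulators of these transporters were not called either. Of 19 tested, 14 were positive and the median log2 fold change was 0.08. Hnf4a, which encodes a nuclear receptor that acts on proximal tubule genes, measured 244, 237, 224 and 233 CPM in knockouts 1 to 4, against 202, 194, 206 and 238 in wildtypes 1 to 4, with wildtype 4 inside the knockout range.

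Markers of the proximal tubule, where most of the 9 genes are expressed, were abundant in both groups, and 0 of 21 passed with edgeR, 15 positive and 6 negative, with a median of 0.05. Their summed level was 11567 to 13213 CPM in knockout and 12158 to 12629 CPM in wildtype. Gatm, which encodes the first enzyme of creatine synthesis, measured 639 ± 9.24 CPM in knockout and 856 ± 87.6 in wildtype (log2 fold change -0.42 ± 0.08; edgeR adjusted p = 0.140), and passed with DESeq2 (adjusted p = 1.7e-04). Slc5a2, which encodes the glucose transporter SGLT2, measured 214 ± 27.3 and 274 ± 23.4 CPM and did not pass. In the late proximal tubule list 0 of 10 passed and the median was 0.03; Napsa, an aspartic protease gene, measured 560 ± 54.6 and 745 ± 137 CPM, and the glucose transporter gene Slc5a1 45.1 ± 6.79 and 56.4 ± 2.83 CPM.

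Markers of other cell types gave 2 calls by edgeR, Pvalb and Slc12a3 of the distal convoluted tubule, which fell (log2 fold changes -2.01 and -0.91). Their list summed to 840 to 1007 CPM in knockout against 1234 to 1333 in wildtype. All 6 podocyte markers were negative, with sums of 793 to 988 against 1053 to 1233 CPM, and the nephrin gene Nphs1 was at -0.53 (values given for single marker genes are log2 fold changes). All 6 endothelial markers were negative at 809 to 877 against 904 to 956 CPM, with Plvap (-0.15) and Flt1 (-0.27) first by p. Thick ascending limb markers summed to 2372 to 2748 against 2197 to 2400 CPM, with Umod at 0.54 and Slc12a1 at -0.26. Collecting duct markers summed to 510 to 911 against 559 to 588 CPM (Slc4a1 at 0.33 and Scnn1g at -0.12), and stromal markers to 5970 to 7029 against 5877 to 6798 CPM (Pdgfrb at -0.21 and Dcn at 0.17).

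Immune, red blood cell, adrenal and nephron progenitor markers overlapped between the groups in their sums. Immune markers reached 72.5 to 78.7 against 78.7 to 87.3 CPM (Csf1r at -0.18 and Ptprc at 0.15), so their groups met only at the edge. Red blood cell markers reached 2146 to 3020 against 2091 to 2925 CPM (Hba-a1 at 0.21 and Hba-a2 at 0.19). Adrenal markers were scarce, at 3.96 to 6.78 against 5.08 to 6.19 CPM (Star at -0.21 and Mc2r at -0.06), and progenitor markers reached 40.6 to 44.9 against 41.9 to 48.4 CPM (Meox1 at -0.21 and Osr1 at -0.23). Liver markers summed to 47.6 to 114 against 65.1 to 73.7 CPM, with Alb at 31.7 CPM in knockout 1 and at most 1.56 elsewhere and Cyp2e1 at 0.45. Brown fat markers varied within both groups, at 40.9 to 202 against 56.6 to 171 CPM (Plin1 at 0.30 and Cidea at 0.14). The part of any of these differences in the SLC22 values was not tested.

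The genes whose scaled expression most resembled that of Slc22a12 over the 8 libraries were Ttr (Pearson r = 0.97), which encodes transthyretin, Rasef (r = 0.97) and Upb1 (r = 0.94), which encodes beta-ureidopropionase. Such values were not particular to Slc22a12. The closest gene of each of the 9 had an r from 0.96 (for Slc22a18) to 0.98 (for Slc22a2). Of the 9 genes, Slc22a12 had both the highest TPM and the largest log2 fold change. Of Ttr, Rasef and Upb1, 0 passed, at log2 fold changes of 0.87, 0.31 and 0.82. Among the 9 genes themselves, Slc22a6 with Slc22a8 and Slc22a2 with Slc22a7 had the highest correlations (r = 0.83 in both), followed by Slc22a8 with Slc22a12 (r = 0.73). These are descriptions of log2 CPM over 8 libraries that share the genotype split and their scaling.

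**Figure D5:**
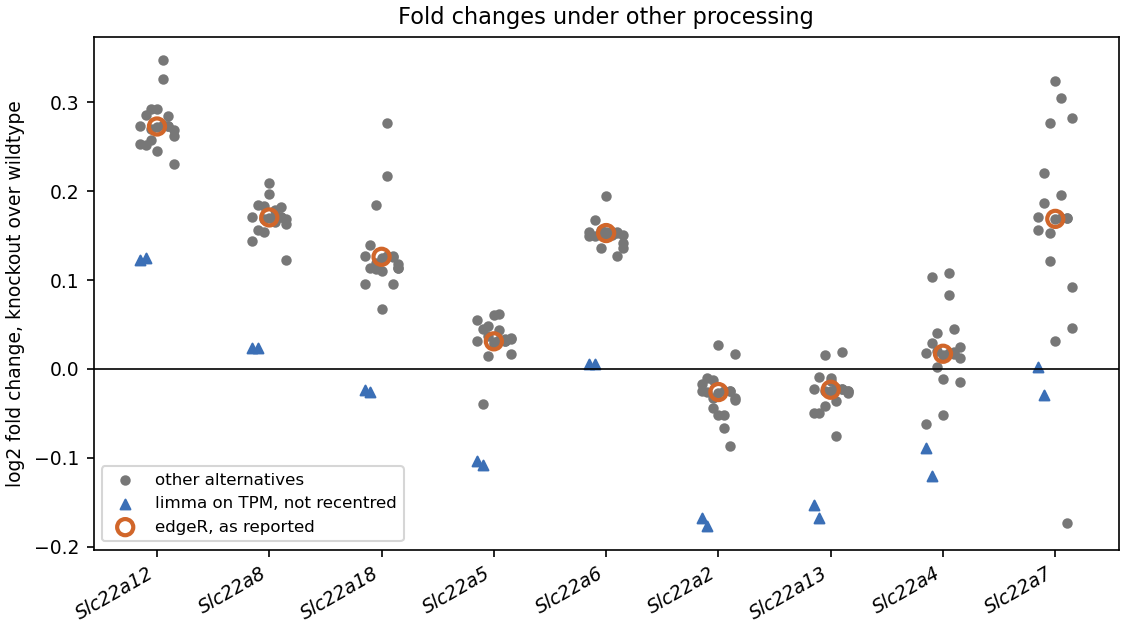
Log2 fold change of each of the 9 genes as reported (orange rings), under limma on TPM that was not recentred (blue triangles) and under the other alternatives (grey points). The TPM triangles of Slc22a12 lie at its low end, its values run from 0.12 to 0.35, and those of Slc22a7 spread most, from -0.17 to 0.32.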

How the data were processed

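Whole-kidney RNA was sequenced from 4 knockout and 4 wildtype samples. Salmon, DESeq2 1.14.1 and mm10 are named per the submitters' processing notes, with no annotation release. The authors deposited an estimated count per gene (from Salmon, given as whole numbers). They also deposited TPM per gene with symbols. The count rows carry no names, so row n was given the nth distinct identifier of the TPM table (47729 of each). For 13251 genes with 50 counts or more throughout, the log2 ratio of count to TPM then varied by an SD of at most 0.0085. Deposited counts thus follow TPM up to 1 factor per gene and library. Whether they were scaled from TPM was not examined.

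Genes were filtered with filterByExpr (18548 kept), scaled by TMM and tested for genotype alone with edgeR 4.0.16 (robust quasi-likelihood, two-sided) in R 4.3.3, adjusting by Benjamini and Hochberg over all tested genes. The SE was derived from the fold change and F. DESeq2 1.42.0 and limma 3.58.1, with pseudocounts of 1 and 0.1 on TPM, were alternatives, beside other scalings, other filters, left-out libraries and the replicate number as a block. The scripts were tested on simulated data. Every pair of libraries differed beyond sampling noise (chi-square over degrees of freedom 11.2 or more).

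The 9 genes and the 24 gene lists were chosen with earlier results of these data known. Named are Kctd1, the 9 genes, from each list and from the other SLC22 genes up to 4 genes past the threshold or else up to 2 with the smallest p, and the 3 genes most like the member with the highest TPM and like the one with the largest change. Some genes that this rule names are not reported here. Chosen after their values were seen were Slc22a16 and Slc22a20. Slc22a14, Slc22a13b-ps and Slc22a21 are named for their position. Gene coordinates are from GENCODE on GRCm38.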

Additional observations from a re-analysis of the deposited data

Results flagged for a closer look

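Among 36 sets of 4 libraries (the 9 genes, each group, TPM and CPM), 3 had 1 library standing clear of its group by Dixon's ratio, and about 1.8 such sets (1 in 20) arise by chance. Slc22a5 had 126.8 CPM in wildtype 2, against 154 to 158 CPM in the other wildtype libraries. Slc22a7 had 0.828 TPM in knockout 3, against 0.325 to 0.402 TPM in the other knockout libraries. Slc22a18 had 18.6 TPM in knockout 2, against 32.2 to 34.4 TPM in the other knockout libraries. In knockout 2 the median gene was at 73.1% of its wildtype TPM as well.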

How the results depend on the processing

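Of the 9 SLC22 genes, 0 passed the threshold in each of 20 alternatives and 1 more chosen after seeing the data, and so did 0 of the other SLC22 genes. Slc22a12, Slc22a8 and Slc22a6 were positive in all 21. The number of calls over all genes, 15, was 27 with no filter, 143 with DESeq2, 5 with limma on log2(TPM + 1) and 5 on log2(TPM + 0.1), 10 to 52 when single libraries were left out (52 without wildtype 4, 29 without knockout 3, 10 without wildtype 3) and 3 without the libraries with Xist reads. Calls among listed genes, 2, were 5, 11, 1 and 1 under the first 4 of these, 2 to 4 with single libraries left out (4 without wildtype 4) and 1 without the Xist libraries. The causes were not tested. The share of Slc22a12 in wildtype TPM, 24.1%, was 16.9% by CPM per kilobase. Of the 9 genes, 6 changed sign in some alternative. On log2(TPM + 1) and log2(TPM + 0.1) these were Slc22a4 (-0.089 and -0.12), Slc22a5 (-0.10 and -0.11) and Slc22a18 (-0.023 and -0.025), and on the latter Slc22a7 (-0.029), where the median of all genes shifted to -0.11 and -0.14. With single libraries left out, values ran from -0.086 to 0.027 for Slc22a2, -0.062 to 0.10 for Slc22a4, -0.039 to 0.060 for Slc22a5, -0.17 to 0.32 for Slc22a7 (negative without knockout 3) and -0.076 to 0.019 for Slc22a13. Slc22a18 kept its sign there, from 0.067 (without knockout 1) to 0.22 (without knockout 2). The median of the 9, 0.13, was 0.05 to 0.16 with single libraries left out (0.05 without knockout 3, 0.06 without wildtype 4, 0.07 without knockout 1) and -0.02 and -0.03 on uncentred TPM.

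Over all tested genes, same-numbered libraries did not deviate together (correlations -0.08 to 0.04). Cidea, given above, was nonetheless lower in libraries 1 and 2 than in 3 and 4 of both groups. Whether the numbers mark pairs or batches is not labelled, and these correlations cannot decide it. With the replicate block edgeR called 10 genes and 0 of the 9, and Slc22a12 had a log2 fold change of 0.27. With 4 libraries a group, 95% intervals were narrowest for Slc22a6 (0.01 to 0.29, log2) and widest for Slc22a7 (-0.58 to 0.92), which limits the changes that could be detected.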

Other observations

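The libraries with Xist reads, 1 in each group, give values but no comparison of their own. Without knockout 2 and wildtype 3 the log2 fold change of Slc22a12 was 0.35 (edgeR adjusted p = 0.417) and that of Slc22a18 was 0.28 (adjusted p = 0.638). Without knockout 2 alone they were 0.33 and 0.22. Knockout 2 is also the library with the high ribosomal share, so its Xist reads and that share cannot be told apart. In wildtype 3, Slc22a12 measured 113 CPM, the highest of its group, and in knockout 2 it measured 116 CPM, the lowest of its group. Slc22a2 stood at 73.0 CPM (knockout 2) and 70.7 CPM (wildtype 3), within the range of the other 6, 59.7 to 75.9 CPM.

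Slc22a29 had the highest wildtype TPM of the SLC22 genes, 59.7, and 48.3 TPM in knockout, below Slc22a12 at 52.6, on 65.7 ± 9.26 and 74.3 ± 6.18 CPM (SD over 4 libraries) in knockout and wildtype, and its close paralogs make its level uncertain. Slc22a29 was chosen after its values were seen.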
